A study of Homo sapiens with 8 samples.

Results

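The 51 mitotic spindle and chromosome segregation genes described here were taken by symbol from a written list of kinases, checkpoint proteins, kinetochore subunits, kinesins, spindle proteins, condensin subunits and the transcription factor FOXM1. All 51 were found among the 18143 gene labels that could be tied to values in the deposited table, and all 51 were among the 10710 genes tested. Expression was measured by RNA-seq in Raji, a rituximab-sensitive Burkitt's lymphoma cell line, and in Raji-4RH, a resistant line derived from Raji by repeated exposure to rituximab. Each line received DMSO or 3 μM chidamide, an inhibitor of histone deacetylases, for 24 h, which gave 4 groups of 2 libraries. All groups were grown in the same RPMI medium with serum, penicillin and streptomycin, and per the sample labels the cells were collected by flow sorting, with no gate stated. Raji-4RH is a single derived line, so resistance and any other difference between these particular lines cannot be told apart. Nothing in the labels says that replicates were separate cultures, so p-values measure only the spread between these libraries.

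Mitosis begins when kinases and phosphatases activate the cyclin B kinase, after which condensin compacts the chromosomes and kinesins and microtubule proteins build the spindle. Kinetochores, protein assemblies on the centromere, attach chromosomes to spindle microtubules, and the spindle checkpoint holds the anaphase promoting complex inactive until every chromosome is attached. Once the checkpoint is satisfied, securin is degraded, separase cuts cohesin, and the cell divides by cytokinesis. Most of these genes are transcribed mainly in G2 and M phase, and a promoter element called the cell cycle genes homology region (CHR), often close to a CCAAT box, is known to repress them in resting cells.

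The promoters of 43 of the 51 members were found in RefSeq (GRCh38.p14), 54 promoters in all. For 43 of the 54 promoters, the 50 bases after the start were found in a GENCODE v29 transcript of the gene. All 54 were searched for motifs. The sequences of 5 members are shown because they come from different role groups, fell strongly in Raji-4RH and hold both elements in the 150 bases before the start of transcription. Each reads 5′ to 3′ on the strand of the gene and ends at the base before the RefSeq start, and the capitals mark the CHR (TTTGAA, or TTCAAA where it lies on the other strand) and the CCAAT box (CCAAT, or ATTGG on the other strand).
PLK1, chr16:23678739-23678888, plus strand: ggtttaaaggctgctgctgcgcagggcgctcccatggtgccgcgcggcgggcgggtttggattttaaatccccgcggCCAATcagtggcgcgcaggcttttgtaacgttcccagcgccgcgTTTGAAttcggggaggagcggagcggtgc
GTSE1, chr22:46296720-46296869, plus strand: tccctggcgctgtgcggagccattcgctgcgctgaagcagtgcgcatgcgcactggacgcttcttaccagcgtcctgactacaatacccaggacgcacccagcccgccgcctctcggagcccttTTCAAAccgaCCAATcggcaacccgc
ESPL1, chr12:53268149-53268298, plus strand: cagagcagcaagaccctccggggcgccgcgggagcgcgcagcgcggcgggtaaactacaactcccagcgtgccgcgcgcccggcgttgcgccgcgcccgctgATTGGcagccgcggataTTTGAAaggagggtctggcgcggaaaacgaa
KIF23, chr15:69414199-69414348, plus strand: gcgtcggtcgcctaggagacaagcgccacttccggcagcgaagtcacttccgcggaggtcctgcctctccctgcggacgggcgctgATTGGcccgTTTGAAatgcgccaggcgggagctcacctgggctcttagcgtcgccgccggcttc
PRC1, chr15:90994536-90994685, minus strand: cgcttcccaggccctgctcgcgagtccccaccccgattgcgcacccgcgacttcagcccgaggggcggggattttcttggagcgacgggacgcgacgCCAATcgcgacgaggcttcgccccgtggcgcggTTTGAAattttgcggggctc

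These sequences share a CHR that begins 20 to 55 bases before the start, at position -29 in PLK1, -26 in GTSE1, -31 in ESPL1, -55 in KIF23 and -20 in PRC1. In PLK1, ESPL1, KIF23 and PRC1 the CCAAT box lay upstream of the CHR, at -73, -48, -64 and -53, and in GTSE1 it lay downstream, at -16. A gene was counted when any of its promoters held the motif. A search of both strands for TTTGAA or TTCGAA found a CHR in 23 of the 43 members, or 53.5%, against 9.72% of 27305 genes. The CCAAT box was found in 32 members, or 74.4%, against 27.8% of genes, and 20 members, or 46.5%, held both elements, against 2.65% of genes. An E2F site, with the letters TTCCCGC, the letters TTCGCGC or the letters TTGGCGC, was found in 6 members, or 14%, against 7.67% of genes. Counted by promoter, a CHR was in 42.6% of 54 member promoters, against 7.87% of 35116 promoters in the RefSeq table. The CCAAT box was in 63% against 23.5%, both elements in 37% against 2.1%, and an E2F site in 11.1% against 6.28%. Counted by gene, 103 other mitotic genes, from the list described further below, held these motifs as well. A CHR was in 20.4% of them, a CCAAT box in 45.6%, both elements in 13.6% and an E2F site in 26.2%.

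**Figure D1:**
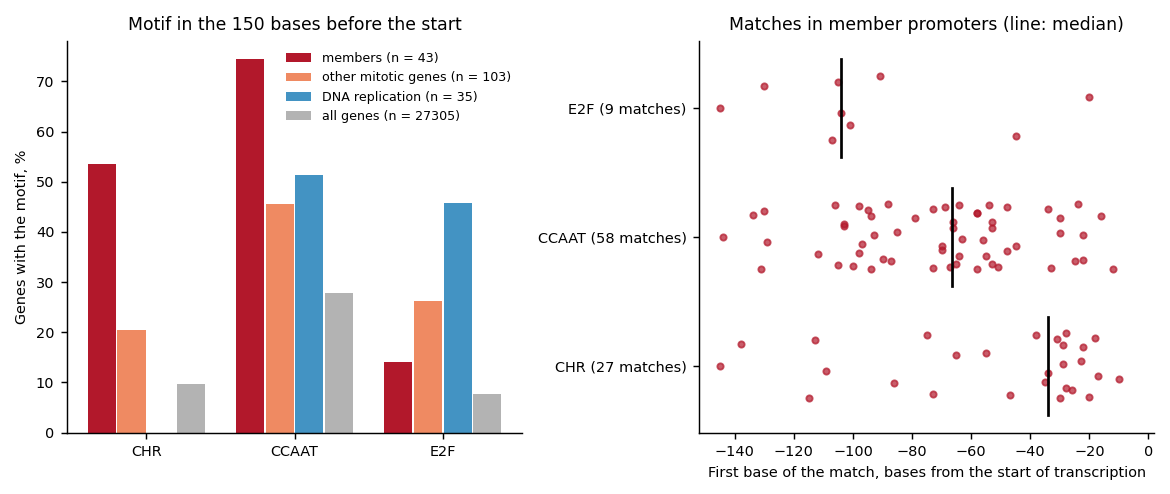
The left panel plots the percentage of genes with each motif in the 150 bases before the RefSeq start, for the members, other mitotic genes, DNA replication genes and all genes, and the right panel plots where each match in a member promoter begins. The CHR bar is tallest for the members, at 53.5%, and is absent for the 35 DNA replication genes, while E2F sites reach 45.7% in the DNA replication genes, and CHR matches gather near the start with a median position of -34.

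The labels and values of the deposited table did not share rows throughout. The values of 25 members stood in the row of their label, and those of the other 26 stood 1 to 14 rows below it and were placed there by fixed offsets. In all 6 stretches of the table that hold members, the offset used gave broadly expressed gene families their highest median read number among the offsets tried, from 0 to 20. Over all 12 stretches this held for 7. In the remaining stretches, with 3 to 19 such genes each, the offset ranked 2 to 13. Labels of those stretches were placed as well, so the shares given for all genes may include wrongly placed values. Library totals were 13991697 to 21193441 reads, lowest in Raji-4RH chidamide 1, and every library was nearest to its own replicate. The 6 B cell markers read 12.5 to 575 FPKM (reads scaled by gene length and library total) in all libraries, and 6 markers of T cells, monocytes, fibroblasts and epithelium read at most 4.13 FPKM. The member with the fewest reads, CDC25C, had 71 to 218 reads per library.

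Chidamide lowered the whole set in Raji-4RH. All 51 members passed the test as lower and none as higher, where 31.6% of all 10710 genes tested were lower and 43.3% were higher (limma on log2(FPKM + 1), Benjamini-Hochberg adjusted p below 0.05). The median log2 change of the members was -1.17, where that of all genes was 0.09. Of all genes, 3.29% had a change below this median of the members. A fall of at least 1 on the log2 scale was seen for 34 members, and the share of all genes with such a fall is not given here. Both chidamide libraries lay below both DMSO libraries for each of the 51 genes, but the share of all genes separated in this way was not counted. The median member kept 41.6% of its DMSO level, with a range from 20.3% for UBE2C to 86.9% for PTTG1. After quantile normalization 49 members were lower, CKAP2 was not called, and the PTTG1 change turned to 0.09, also not called. Of the 25 members whose values stood beside their labels all 25 were lower. Read from the row of the label, without placing, 44 labels could be tested, of which 31 were lower and 11 higher.

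In Raji the set moved in the same direction by a smaller amount. A total of 44 members were lower and 2 were higher, NCAPD2 and PTTG1, where 28.5% of all genes were lower and 31.5% were higher. The median log2 change was -0.41, where that of all genes was 0.02, and the median member kept 73.7% of its DMSO level. On the scale log2(FPKM + 1) no member fell by 1 or more. UBE2C came closest, at -0.9965, and kept 49.7% of its DMSO level in FPKM. BUB1, CDC25C, CENPA, NEK2 and NUSAP1 were not called. Read from the row of the label, 29 were lower and 10 higher of 44. Summed over the 51 members, expression was 1492 and 1541 FPKM in the Raji DMSO libraries and 1134 and 1131 FPKM with chidamide, and it was 1416 and 1419 FPKM in Raji-4RH DMSO and 587.5 and 606.5 FPKM with chidamide. The sums of the Raji-4RH chidamide libraries were thus the lowest of the 8, below those of both Raji chidamide libraries. In bulk libraries fewer cells in mitosis and less RNA per cell cannot be told apart. With 2 libraries a group the smallest exact permutation p is 0.333, and the adjusted p-values therefore depend on limma's pooling of the spread over genes. The scale log2(FPKM + 1) understates the change of low genes.

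**Figure D2:**
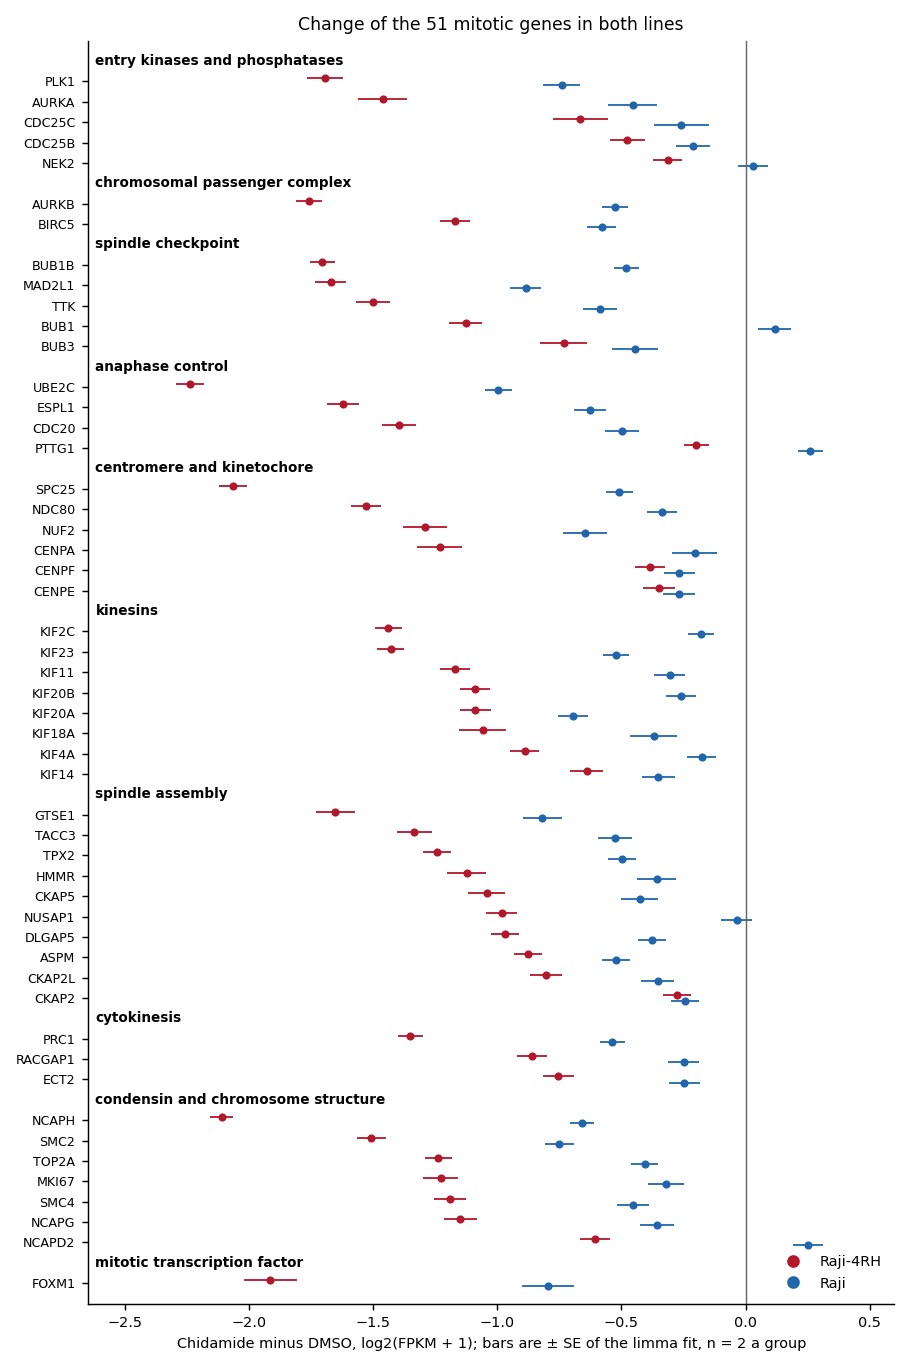
The horizontal axis gives the difference between chidamide and DMSO in log2(FPKM + 1) for each of the 51 genes, ordered by role, with red points for Raji-4RH, blue points for Raji, and bars for the standard error of the fit (n = 2 libraries a group). All red points lie below 0, from -2.24 for UBE2C to -0.20 for PTTG1, and the blue points lie nearer to 0 for all genes except PTTG1, with BUB1, NEK2, NCAPD2 and PTTG1 above 0, at most 0.26.

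The difference between the lines was tested directly. The effect of chidamide was lower in Raji-4RH than in Raji for 45 members and higher for none, where this interaction was lower for 21.7% and higher for 27.2% of all genes. The median interaction was -0.79 on the log2 scale, where that of all genes was 0.04. The 6 members not called were BUB3, CDC25B, CDC25C, CENPE, CENPF and CKAP2, of which BUB3 was called without Raji-4RH chidamide replicate 1 (adjusted p = 0.000692), and CDC25B and CDC25C without Raji-4RH chidamide replicate 2 (adjusted p = 0.0028 and 0.0318) and after quantile normalization (0.0351 and 0.00619) or median-centring (0.0236 and 0.0369). The size of the change was larger in Raji-4RH for 50 of the 51 members, the exception being PTTG1, which moved in opposite directions. Across the 51 members, changes in Raji-4RH and in Raji had a Pearson's r of 0.72 and a Spearman's rho of 0.73, which describes genes measured in the same libraries and carries no p. Read from the row of the label, 26 interactions were lower and 8 higher of 44.

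Among the kinases and phosphatases of mitotic entry, all 5 fell in Raji-4RH, with a median log2 change of -0.67. PLK1, a kinase needed for entry, spindle assembly and exit, read 46.4 and 49.0 FPKM in the Raji-4RH DMSO libraries and 13.0 and 15.1 FPKM with chidamide. In Raji its libraries read 55.4 and 52.3 FPKM and then 31.7 and 31.9 FPKM, so that its DMSO libraries were above all chidamide libraries in both lines. PLK1 fell by 1.7 ± 0.07 (SE) in Raji-4RH and by 0.74 ± 0.07 in Raji, with limma adjusted p of 2.65e-07 and 5.81e-05. Its exons overlap an antisense gene and ERN2 over 12.5% of their length, and it stood 28 rows from the edge of its stretch, the closest of the members. AURKA, the kinase of the spindle poles, read 44.0 and 44.6 FPKM in Raji-4RH DMSO and 17.4 and 13.7 FPKM with chidamide, against 16.2 and 17.3 FPKM and then 12.5 and 11.4 FPKM in Raji. The treated Raji-4RH libraries thus stood near the level of untreated Raji. NEK2, a centrosome kinase, had the smallest change of the group in Raji-4RH, from 13.4 and 13.1 FPKM to 10.6 and 10.4 FPKM, a log2 change of -0.31 ± 0.06 (adjusted p = 0.00128). In Raji NEK2 read 17.1 and 15.4 FPKM with DMSO and 16.7 and 16.5 FPKM with chidamide, and its groups overlapped.

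The phosphatases CDC25B and CDC25C, which remove inhibitory phosphates from the mitotic kinase, moved less than PLK1 and AURKA. CDC25B read 17.3 FPKM in both Raji-4RH DMSO libraries and 11.3 and 13.1 FPKM with chidamide, and 33.8 and 32.0 FPKM and then 28.5 and 28.0 FPKM in Raji. Its Raji change, -0.21 on the log2 scale (adjusted p = 0.0283), did not pass the test when any of the 4 Raji libraries was left out, with adjusted p from 0.0508 to 0.144. CDC25C read 3.82 and 3.22 FPKM in Raji-4RH DMSO and 1.67 and 2.03 FPKM with chidamide, a log2 change of -0.67 ± 0.11. In Raji it read 3.08 and 3.52 FPKM and then 2.91 and 2.29 FPKM, which do not overlap, with an adjusted p of 0.0755 that passed the test after quantile normalization (0.0123), median-centring (0.0349) or without Raji chidamide replicate 1 (0.0364).

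The chromosomal passenger complex corrects faulty attachments and acts again in cytokinesis, and both of its members in the list fell in both lines. AURKB, its kinase, read 41.2 and 42.3 FPKM in Raji-4RH DMSO and 11.4 and 11.9 FPKM with chidamide, against 66.0 and 64.2 FPKM and then 45.7 and 44.1 FPKM in Raji. AURKB fell by 1.76 ± 0.05 in Raji-4RH and by 0.53 ± 0.05 in Raji. BIRC5, known as survivin, read 35.4 and 38 FPKM in Raji-4RH DMSO and 15.4 and 16.0 FPKM with chidamide, and 42.7 and 46.1 FPKM and then 29.7 and 29 FPKM in Raji. BIRC5 fell by 1.17 in Raji-4RH and by 0.58 in Raji, and the interactions were -1.23 for AURKB and -0.59 for BIRC5.

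All 5 genes of the spindle checkpoint fell in Raji-4RH, with a median log2 change of -1.5, and 4 of 5 fell in Raji. BUB1B, which encodes the checkpoint protein BUBR1, read 31.5 and 30.1 FPKM in Raji-4RH DMSO and 8.61 and 8.86 FPKM with chidamide, and 30.8 and 31.7 FPKM and then 22.3 and 22 FPKM in Raji. The DMSO libraries of the lines overlapped for BUB1B, and both Raji-4RH chidamide libraries were below both Raji chidamide libraries. MAD2L1 and TTK, the Mad2 protein and the kinase MPS1, fell by 1.67 and 1.5 in Raji-4RH and by 0.89 and 0.59 in Raji. BUB1, the kinase that recruits the other checkpoint proteins, read 19.4 FPKM in both Raji-4RH DMSO libraries and 7.88 and 8.81 FPKM with chidamide. In Raji BUB1 read 20.5 and 22.2 FPKM with DMSO and 22.8 and 23.7 FPKM with chidamide, so the chidamide libraries were the higher ones, with a log2 change of 0.12 (adjusted p = 0.161) that quantile normalization raised to 0.21 (adjusted p = 0.0268). BUB3 had the smallest change of the group in Raji-4RH, from 32.6 and 32.3 FPKM to 21.6 and 17.0 FPKM, a log2 change of -0.73 ± 0.09. In Raji BUB3 went from 26.3 and 26.7 FPKM to 18.9 and 19.5 FPKM.

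Anaphase control held both the largest and the smallest fall of the whole set in Raji-4RH. UBE2C (chr20:45812576-45816957), the ubiquitin conjugating enzyme of the anaphase promoting complex, read 89.1 and 93.9 FPKM in Raji-4RH DMSO and 18.9 and 18.3 FPKM with chidamide. In Raji it read 117.3 and 115.5 FPKM with DMSO and 56.2 and 59.6 FPKM with chidamide. UBE2C fell by 2.24 ± 0.05 in Raji-4RH and by 1.00 ± 0.05 in Raji, the largest fall of a member in each line, with adjusted p of 2.84e-08 and 2.46e-06. ESPL1, the separase that cuts cohesin, and CDC20, the activator of the anaphase promoting complex, fell by 1.62 and 1.40 in Raji-4RH and by 0.63 and 0.50 in Raji. PTTG1, the securin that holds separase inactive, read 50.2 and 48.5 FPKM in Raji-4RH DMSO and 43.2 and 42.5 FPKM with chidamide. In Raji it read 44.7 and 47.3 FPKM and rose to 55.0 and 55.6 FPKM. The PTTG1 change was -0.20 ± 0.05 in Raji-4RH (adjusted p = 0.00688) and 0.26 ± 0.05 in Raji (adjusted p = 0.00237), and the interaction was -0.46 ± 0.07 (adjusted p = 0.00119). The Raji-4RH fall was lost without Raji-4RH DMSO replicate 1, with an adjusted p of 0.0612. PTTG1 has near-identical copies in the genome, as have AURKA and KIF4A, and how reads were shared among the copies was not analysed here.

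Of the 6 centromere and kinetochore genes, 4 fell by more than 1 in Raji-4RH and 2 by less than 0.4 on the log2 scale. SPC25 (chr2:168834132-168913371), a subunit of the NDC80 complex that binds microtubules, read 23.3 and 24.4 FPKM in Raji-4RH DMSO and 5.05 and 4.84 FPKM with chidamide, against 10.2 and 10.1 FPKM and then 7.06 and 6.65 FPKM in Raji. SPC25 had the largest interaction of the set, -1.56 ± 0.08 (adjusted p = 6.31e-06). Its partners NDC80 and NUF2, which form the other end of the same rod, fell by 1.53 and 1.29 in Raji-4RH. NDC80 read 10.3 and 10.1 FPKM in Raji-4RH DMSO and 10.3 and 10.96 FPKM in Raji DMSO, so that its untreated libraries overlapped between the lines, while those of SPC25 did not. CENPA, the histone H3 variant that marks the centromere, read 19.4 and 18.9 FPKM in Raji-4RH DMSO and 6.78 and 8.41 FPKM with chidamide. In Raji it read 18.6 and 20.2 FPKM and then 16.0 and 17.3 FPKM, which do not overlap, with a log2 change of -0.21 (adjusted p = 0.0836). This Raji change was called when only Raji libraries entered the fit, after median-centring and with voom on recovered reads, at adjusted p of 0.0304 to 0.0404.

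CENPE and CENPF, a kinetochore motor and a kinetochore protein of the outer layer, fell in both lines and were not called in the interaction. CENPE read 6.84 and 6.35 FPKM in Raji-4RH DMSO and 4.95 and 4.97 FPKM with chidamide, and 6.81 and 7.52 FPKM and then 5.74 and 5.81 FPKM in Raji. CENPF read 19.3 and 19 FPKM and then 14.1 and 14.8 FPKM in Raji-4RH, and 22.7 and 25.3 FPKM and then 19.95 and 19.5 FPKM in Raji. Their interactions were -0.08 ± 0.09 (adjusted p = 0.478) and -0.12 ± 0.09 (adjusted p = 0.286), among the 3 smallest of the set.

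**Figure D3:**
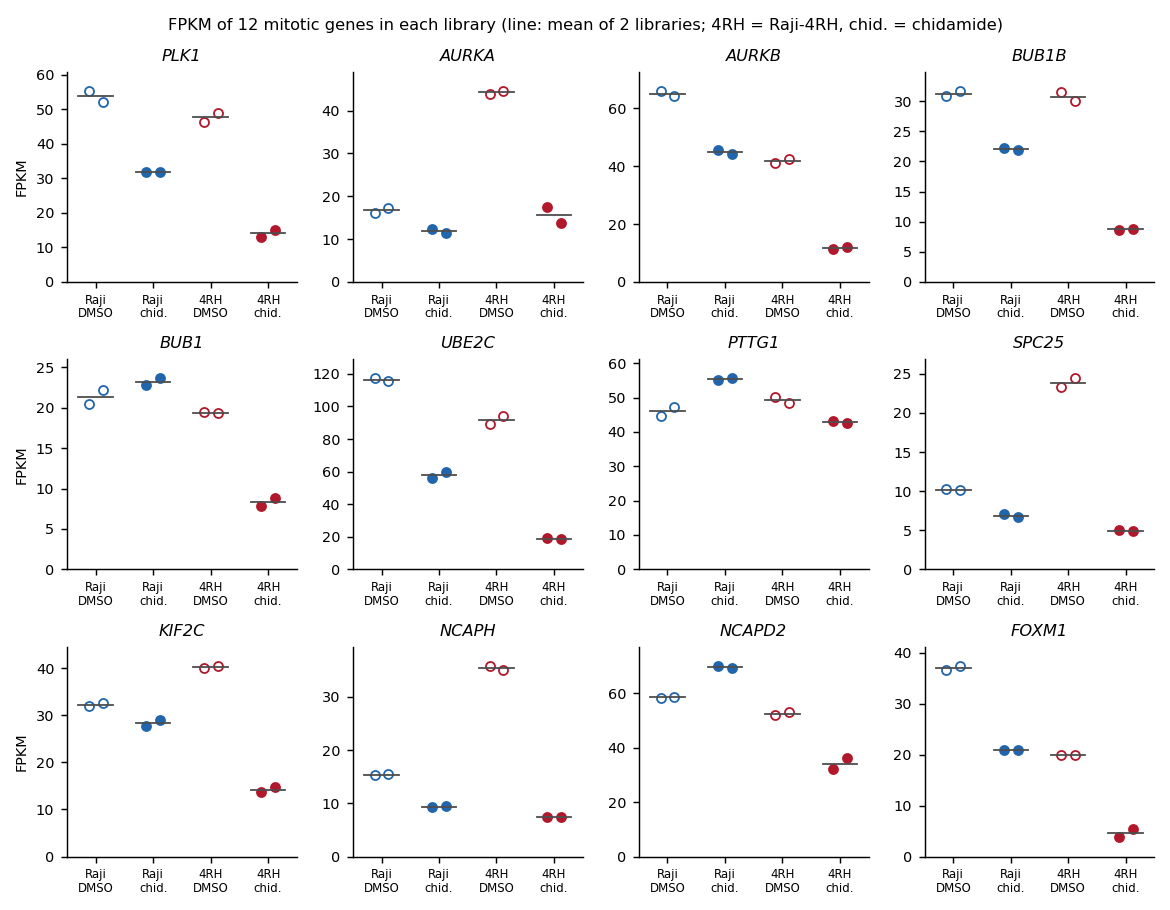
Each panel plots the FPKM of a mitotic gene in the 8 libraries, with open circles for DMSO, filled circles for chidamide, blue for Raji and red for Raji-4RH, and a line at the mean of the 2 libraries. The filled red circles are the lowest in all panels shown except AURKA, where they lie near the open blue circles, and in BUB1, PTTG1 and NCAPD2 the filled blue circles are the highest.

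All 8 kinesins, motors that move along or shorten microtubules, fell in both lines. Their median log2 change was -1.09 in Raji-4RH and -0.33 in Raji, and the interaction was called for all 8. KIF2C, which takes microtubules apart at the centromere, read 40.1 and 40.5 FPKM in Raji-4RH DMSO and 13.8 and 14.7 FPKM with chidamide. In Raji it read 31.9 and 32.6 FPKM and then 27.6 and 29.1 FPKM. KIF2C thus fell by 1.44 ± 0.05 in Raji-4RH and by 0.18 ± 0.05 in Raji (adjusted p = 0.0187), and the Raji fall did not pass the test after quantile normalization (adjusted p = 0.268) or without Raji DMSO replicate 2 or Raji chidamide replicate 1. KIF23, the motor of the central spindle, fell by 1.43, KIF11, which pushes the spindle poles apart, by 1.17, and KIF20B and KIF20A by 1.09 each in Raji-4RH. KIF18A and KIF4A, which limit microtubule growth on and around chromosomes, fell by 1.06 and 0.89. KIF14 had the smallest change of the kinesins in Raji-4RH, from 6.38 and 6.06 FPKM to 3.64 and 3.62 FPKM, and in Raji it went from 7.02 and 7.67 FPKM to 5.80 and 5.28 FPKM. The Raji falls of KIF4A (-0.18), KIF18A (-0.37) and KIF20B (-0.26) were also lost when a library was left out, any of the 4 Raji libraries for KIF4A, the second of either Raji group for KIF18A, and Raji chidamide replicate 2 for KIF20B, with adjusted p up to 0.176. The KIF14 interaction, -0.29 ± 0.09 (adjusted p = 0.0344), was not called when any of 4 libraries, both of Raji-4RH DMSO and the first of Raji DMSO and of Raji chidamide, was left out.

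All 10 spindle assembly genes fell in Raji-4RH, by a median of 1.01 on the log2 scale, and 9 fell in Raji. GTSE1, a microtubule tip protein, read 32.7 and 33.3 FPKM in Raji-4RH DMSO and 9.06 and 10.6 FPKM with chidamide, and 30.4 and 28.6 FPKM and then 15.5 and 17.1 FPKM in Raji. GTSE1 fell by 1.65 and 0.82, the largest falls of the group in each line. TACC3 and CKAP5, which together stabilise the microtubules that hold kinetochores, fell by 1.34 and 1.04 in Raji-4RH and by 0.53 and 0.43 in Raji, and TPX2, the activator of Aurora A on the spindle, by 1.25 and 0.50. HMMR, DLGAP5, ASPM and CKAP2L fell by 0.80 to 1.12 in Raji-4RH and by 0.35 to 0.52 in Raji. NUSAP1, which bundles spindle microtubules, fell from 39.5 and 38.4 FPKM to 18.1 and 20.4 FPKM in Raji-4RH. In Raji NUSAP1 read 48.8 and 50.1 FPKM and then 47.6 and 48.7 FPKM, nearly level, with a log2 change of -0.04 (adjusted p = 0.65). A second gene on the same strand shares 62.2% of the NUSAP1 exon length, and the handling of such reads is not given in the sources used here. CKAP2 changed least of the group in Raji-4RH, from 25 and 24.3 FPKM to 19.98 and 20.4 FPKM. In Raji it went from 22.2 and 24.0 FPKM to 19.7 and 18.9 FPKM, and its interaction of -0.03 was the smallest of the 51 and changed sign under quantile normalization. Its Raji fall was lost without Raji chidamide replicate 2 (adjusted p = 0.0506).

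The 3 cytokinesis genes fell in both lines. PRC1, which bundles the antiparallel microtubules of the central spindle, read 11.2 and 11.6 FPKM in Raji-4RH DMSO and 3.79 and 3.93 FPKM with chidamide, and 25.8 and 26.5 FPKM and then 17.6 and 17.8 FPKM in Raji. PRC1 fell by 1.35 ± 0.05 in Raji-4RH and by 0.54 ± 0.05 in Raji. It shares 58.4% of its exon length with a second gene on the same strand and an antisense gene, and it was the only member placed 14 rows below its label. RACGAP1 and ECT2, which switch on the contractile ring, fell by 0.86 and 0.75 in Raji-4RH and by 0.25 each in Raji, where both calls were lost without Raji DMSO replicate 2 (adjusted p = 0.0557 and 0.0594), as was that of ECT2 without Raji chidamide replicate 2 (adjusted p = 0.0589). ECT2, the smallest fall of the group, read 12.4 and 12 FPKM in Raji-4RH DMSO and 6.62 and 7.01 FPKM with chidamide, and 11.8 and 13.0 FPKM and then 10.4 and 10.2 FPKM in Raji.

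Condensin, the complex that compacts mitotic chromosomes, was split in Raji. NCAPH (chr2:96335787-96373845), the subunit that closes the ring of condensin I, read 35.9 and 35.1 FPKM in Raji-4RH DMSO and 7.37 and 7.5 FPKM with chidamide, against 15.3 and 15.5 FPKM and then 9.34 and 9.42 FPKM in Raji. NCAPH fell by 2.11 ± 0.05 in Raji-4RH and by 0.66 ± 0.05 in Raji, and its interaction of -1.45 was the second largest of the set. The ATPase subunits SMC2 and SMC4 fell by 1.51 and 1.19 in Raji-4RH and by 0.75 and 0.45 in Raji, and NCAPG fell by 1.15 and 0.36. NCAPD2, the remaining subunit of condensin I, read 52.0 and 53.0 FPKM in Raji-4RH DMSO and 32.2 and 36.2 FPKM with chidamide, and 58.4 and 58.6 FPKM and then 70.2 and 69.4 FPKM in Raji. NCAPD2 therefore fell by 0.61 ± 0.06 in Raji-4RH and rose by 0.25 ± 0.06 in Raji (adjusted p = 0.00769), while its 4 partners fell in Raji, and the rise was not called without Raji chidamide replicate 1 (adjusted p = 0.0522). TOP2A, the topoisomerase that untangles sister chromatids, and MKI67, the proliferation marker that coats mitotic chromosomes, fell by 1.24 and 1.23 in Raji-4RH and by 0.41 and 0.32 in Raji.

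FOXM1 (chr12:2857681-2877155), a transcription factor of G2 and M phase genes, read 19.9 and 19.98 FPKM in Raji-4RH DMSO and 3.87 and 5.34 FPKM with chidamide. In Raji it read 36.6 and 37.5 FPKM with DMSO and 20.9 and 21 FPKM with chidamide, so that treated Raji stood near untreated Raji-4RH. FOXM1 fell by 1.92 ± 0.11 in Raji-4RH and by 0.80 ± 0.11 in Raji, and the interaction was -1.12 ± 0.15 (adjusted p = 0.000523). The gene ITFG2 on the opposite strand overlaps 15.9% of its exon length, and whether counting used strand is not given in the sources used here.

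Before treatment the lines differed in either direction. In DMSO 19 members were lower and 11 higher in Raji-4RH than in Raji, and 21 were not called, where 32.4% of all genes were lower and 41.2% were higher. The median difference of the members was -0.07 on the log2 scale, and that of all genes was 0.06. Of all genes, 39.95% had a difference below the median of the members, so the set lay near the middle of all genes. Calls in either direction were common among all genes, and those of single members below are not read as a trait of the set. The 3 largest differences upward were those of AURKA, SPC25 and NCAPH, at 1.35 ± 0.10, 1.15 ± 0.06 and 1.15 ± 0.05, with all Raji-4RH DMSO libraries of these genes more than 2 times those of Raji. The largest downward were those of PRC1 (-1.13 ± 0.05), CDC25B (-0.89 ± 0.07) and FOXM1 (-0.86 ± 0.11). Members of the same complex differed in their calls. SPC25 was higher while NDC80 (-0.05) and NUF2 (-0.03) were not called, NCAPH was higher while NCAPG was lower (-0.23) and SMC2, SMC4 and NCAPD2 were not called, and AURKA was higher by 1.35 while its activator TPX2 was higher by 0.22. PRC1 was lower while KIF4A, its partner kinesin on the central spindle, was higher by 0.67. The calls of TPX2 (adjusted p of 0.0546 and 0.0596) and NCAPG (0.0621 to 0.0768) were lost without some of the DMSO libraries, Raji DMSO replicate 1 or Raji-4RH DMSO replicate 1 for TPX2, and Raji DMSO replicate 2 or either Raji-4RH DMSO library for NCAPG.

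With chidamide the lines differed mainly in the same direction. A total of 46 members were lower in Raji-4RH than in Raji and only AURKA was higher, where 35% of all genes were lower and 44.3% were higher. The median difference was -0.81, where that of all genes was 0.09. BUB3, CKAP2, CKAP2L and KIF4A were not called. Read from the row of the label, 29 were lower and 13 higher of 44. Of the 11 members that were higher in Raji-4RH in DMSO, 7 were lower in Raji-4RH with chidamide, SPC25 (-0.40) and NCAPH (-0.30) among them. AURKA remained higher by 0.34 ± 0.10 (adjusted p = 0.012), and this call was lost after median-centring (adjusted p = 0.0506) and without Raji chidamide replicate 2 (adjusted p = 0.08). The largest differences were those of FOXM1 (-1.98), PRC1 (-1.94) and AURKB (-1.86).

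**Figure D4:**
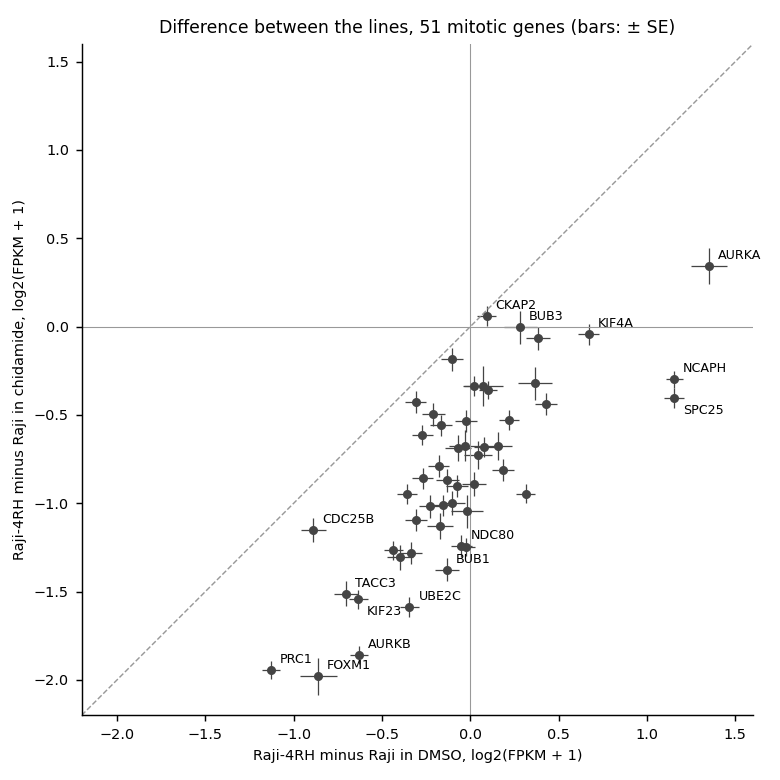
The difference between Raji-4RH and Raji in log2(FPKM + 1) is plotted for each of the 51 genes, in DMSO on the horizontal axis and in chidamide on the vertical axis, with bars for the standard error and a dashed line where both are equal. All points lie below the dashed line, and SPC25 and NCAPH lie at 1.15 on the horizontal axis but at -0.40 and -0.30 on the vertical axis.

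Other genes of the same machinery, taken from a list of 121, were also mainly lower. Of these, 116 were placed and 115 tested. KIFC1 was placed but read 0 FPKM in every group, and whether its row was placed rightly was not tested. In Raji-4RH 98 were lower and 5 higher, where 31.6% of all genes were lower and 43.3% were higher. In Raji 79 were lower and 5 higher, where 28.5% of all genes were lower and 31.5% were higher. The median log2 changes were -0.84 in Raji-4RH and -0.36 in Raji. Condensin partners, 5 genes that include the condensin II subunits NCAPD3, NCAPG2 and NCAPH2, were all lower in both lines, with medians of -1.45 in Raji-4RH and -0.47 in Raji. All 6 centriole duplication genes and all 18 inner centromere genes tested were lower in Raji-4RH, with medians of -1.18 and -0.99. Cohesin, the ring that holds sister chromatids together, was lower for 8 of 13 genes and higher for 2 in Raji-4RH, and the anaphase promoting complex and its regulators were lower for 12 of 17 genes and higher for 2, each with a median of -0.39. The remaining lists lay between these in Raji-4RH. The medians were -1.08 for passenger, shugoshin and checkpoint partners (12 of 13 lower), -1.24 for outer kinetochore partners (10 of 11 lower), -0.50 for spindle pole and microtubule partners (16 of 20 lower), -0.86 for cytokinesis partners (4 of 4 lower) and -1.02 for entry control partners (7 of 8 lower).

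The largest falls among these partners were those of PKMYT1, CDCA5 and TRIP13. PKMYT1, a kinase that holds the mitotic kinase inactive, read 27.3 and 29.6 FPKM in Raji-4RH DMSO and 3.85 and 4.44 FPKM with chidamide, and fell by 2.52 ± 0.10. CDCA5, or sororin, which protects cohesin from release, read 42.8 and 43.5 FPKM and then 7.96 and 8.17 FPKM, and fell by 2.28 ± 0.05. The core cohesin subunits SMC1A, STAG2, RAD21, STAG1 and SMC3 fell by 0.95, 0.78, 0.49, 0.39 and 0.27. TRIP13, which turns over checkpoint complexes, read 20.8 and 20.5 FPKM and then 3.43 and 3.68 FPKM, and fell by 2.25 ± 0.05. The 3 largest rises were small. ANAPC11 and ANAPC16, subunits of the anaphase promoting complex, rose by 0.38 and 0.28, and ESCO1, a cohesin acetyltransferase, rose by 0.24. The rises of ANAPC16 and ESCO1 were not called after median-centring (adjusted p = 0.0593 and 0.0744). After quantile normalization ESCO1 was also not called (adjusted p = 0.103), while the rise of ANAPC16 was larger, 0.52 (adjusted p = 0.000911).

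A list of 41 DNA replication genes, which act in S phase, was set beside the mitotic genes. All 41 were lower in Raji-4RH, where 31.6% of all genes were lower, and their median was -1.73. In Raji 36 were lower and 1 higher, where 28.5% of all genes were lower and 31.5% were higher, and the median was -0.65. The medians of the 51 members, -1.17 and -0.41, were thus smaller in size than those of the replication genes in both lines, and this difference between lists was not tested. None of 35 replication genes held a CHR, 45.7% held an E2F site and 51.4% held a CCAAT box. Within the members, those with a CHR had a median log2 change of -1.15 in Raji-4RH (n = 23) and those without had -1.18 (n = 20). Members with both CHR and CCAAT had a median of -1.09 (n = 20) against -1.19 without (n = 23) (difference not tested). A match is a description of letters in a window, and no match says only that these letters are not in this window.

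**Figure D5:**
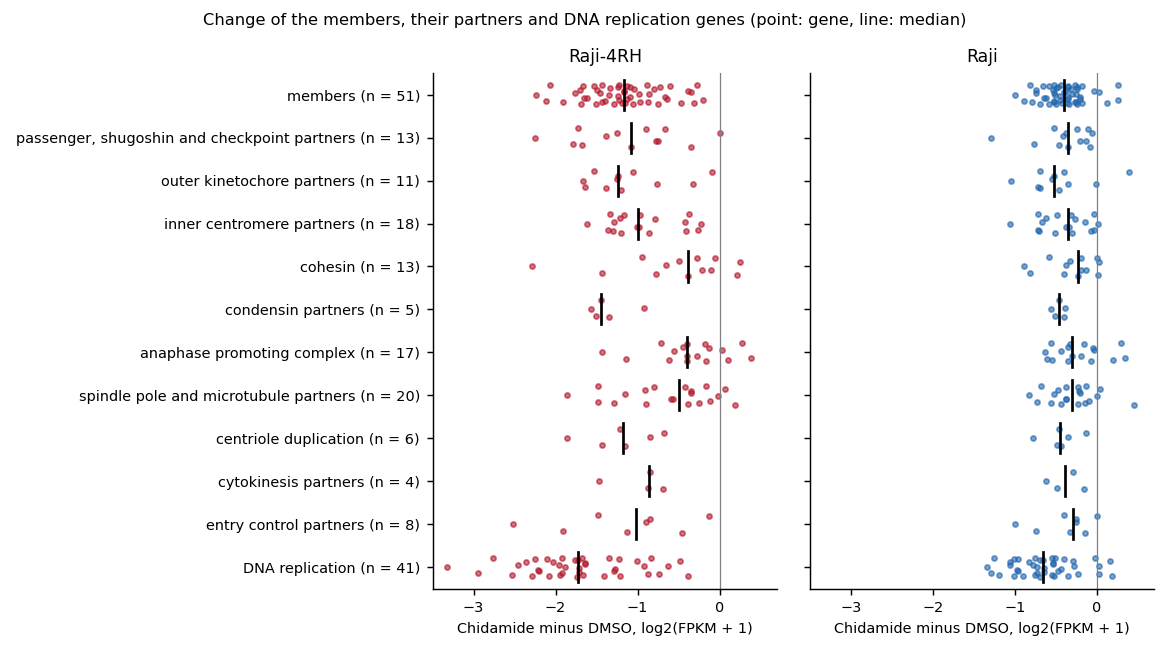
Each point is a gene and each vertical line the median of a list, with the difference between chidamide and DMSO in log2(FPKM + 1) on the horizontal axis for Raji-4RH on the left and Raji on the right. The medians of all 12 lists lie below 0 in both lines, with cohesin and the anaphase promoting complex at -0.39 and DNA replication at -1.73 in Raji-4RH.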

How the data were processed

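RNA-seq of 8 libraries was used, with groups taken from the sample labels. The authors deposited their values as FPKM in a single table that also holds Ensembl IDs and gene lengths. The submitters' processing notes name HISAT2 2.0.5, SAMtools 1.7, HTSeq 0.9.1 and DESeq2 1.22.2 and the builds hg38 and GRCh38, without their roles, and the annotation and any use of strand are not given in the sources used here. Multiplying FPKM by length and library total gave whole reads for 100% of non-zero values (tolerance 0.01 reads).

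The table has 63967 labels but 63305 rows of values, and the last 662 rows repeat the first 662. Values were therefore read from fixed offsets below the labels in 12 stretches of rows, which placed 18143 labels and 90.8 to 93.2% of reads, and FPKM was rescaled to the label's length. A second SPC25 label was not placed.

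A gene entered the test when 2 or more libraries reached 1 FPKM, which left 10710. The test was limma 3.58.1 in R 4.3.3 (lmFit, contrasts.fit, eBayes with a mean trend) with log2(FPKM + 1) as response, group means of all 8 libraries and 4 residual degrees of freedom. The threshold was a p of 0.05 after Benjamini-Hochberg adjustment. Adjusted p-values in the text come from limma, and errors are standard errors of the fit. The fit was tried on simulated data for the Raji-4RH comparison with 10710 genes, of which 200 were changed by 1 on the log2 scale. All 200 were called, together with 22 unchanged genes. The simulated counts had the same fixed spread for every gene, the changed genes were drawn above an expression floor, and all others were equal in all groups. Far more genes were called in the data, so this trial does not give the error rate there. The comparisons within each line and between lines share libraries with the interaction.

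Members, gene lists and tests were chosen with earlier results of these data known. Values in every library were given for the largest fall and the smallest change of each role group, members called higher or not called in either line, the 5 largest and 3 smallest interactions and the 3 highest and 3 lowest differences between lines in DMSO, and of the partner lists for the 3 largest falls and rises with a mean of at least 5 FPKM. Some values of other members were chosen after they were seen. Coordinates and overlaps are from GENCODE v29 (GRCh38), where 49 of 51 members had the same length as in the table, and promoters are from RefSeq GRCh38.p14.

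Alternatives were quantile normalization, median-centring, a pseudocount of 0.1, no filter, no trend, only the libraries compared, a replicate block, voom on the recovered reads, rows as deposited, a change of at least 1 and leaving out each library. A fit of the first stretch of rows only was added after seeing the data.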

Additional observations from a re-analysis of the deposited data

Results flagged for a closer look

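The response to chidamide differed between the lines for 45 of the 51 mitotic genes by the interaction term of the limma fit (adjusted p below 0.05), each time with the lower value in Raji-4RH. The largest differences, effect in Raji-4RH minus effect in Raji on the log2 scale, were -1.56 for SPC25, -1.45 for NCAPH, -1.26 for KIF2C, -1.24 for BUB1 and -1.24 for UBE2C. Among members that rose or were not called in Raji, the difference was -0.86 for NCAPD2, -0.46 for PTTG1, -0.95 for NUSAP1, -1.03 for CENPA and -0.34 for NEK2. NCAPD2 and PTTG1 rose in Raji and fell in Raji-4RH, so their effects had opposite directions. Within a line, every chidamide library lay on the same side of its DMSO libraries. The opposite direction of PTTG1 did not hold after quantile normalization, where its Raji-4RH change was 0.09 and not called. As given above, the PTTG1 fall in Raji-4RH and the NCAPD2 rise in Raji were each not called without a particular library. With 2 libraries a group, single libraries could not be examined as outliers.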

How the results depend on the processing

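Precision was limited by 2 libraries a group and 4 residual degrees of freedom, and values of 26 members were read below their labels. Read from the row of the label (44 tested), the members were 31 lower and 11 higher in Raji-4RH (median -0.62), 29 and 10 in Raji (-0.34), 26 and 8 for the interaction (-0.45) and 29 and 13 between the lines in chidamide (-0.51). Of the 19 shifted labels tested that way, 12 had the opposite sign in Raji-4RH, since these rows hold values of other genes. Fitted on the first stretch of rows alone, chosen after seeing the data, all 25 of its members were lower in Raji-4RH.

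Requiring a change of at least 1 left 0 lower and 0 higher in Raji and 11 lower for the interaction. Between the lines it left 1 lower and 3 higher in DMSO, and 18 lower and 0 higher in chidamide. The shares of all genes with changes of this size are not given here. The Raji-4RH median became -1.25 after median-centring, -1.25 with a pseudocount of 0.1 and -1.27 with voom. The interaction median became -0.87 with the pseudocount and -0.88 with voom, and the chidamide difference between lines -0.89, -0.89 and -0.90 in the same 3 settings. In that comparison the number higher was 2 after quantile normalization and 0 after median-centring.

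Quantile normalization moved the median of all genes in Raji-4RH from 0.09 to -0.02 and the share of higher among called genes from 57.9% to 47.8%. It turned the Raji-4RH change of PTTG1 to 0.09 (0.0884), the only called member value that changed sign. It also turned values that were not called, namely NUSAP1 in Raji (0.117), the CKAP2 interaction (0.0737), CDC25C (-0.0527) and TTK (-0.00077) between lines in DMSO, and BUB3 in chidamide (0.0909). Median-centring turned NEK2 in Raji (-0.0117), TTK (-0.0218), ASPM (-0.0208) and HMMR (-0.00236) in DMSO, and CKAP2 in chidamide (-0.0185).

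Leaving out each library in turn gave 50 to 51 members lower in Raji-4RH, 38 to 42 in Raji and 44 to 47 for the interaction. The Raji median ranged from -0.48, without Raji DMSO replicate 1, to -0.35, and the number higher in Raji was 1 without Raji chidamide replicate 1 and otherwise 2. The number higher between lines in chidamide ranged from 0 to 2. Values not called that changed sign ranged from -0.0407 to 0.1 for NEK2 in Raji and from -0.0859 to 0.0242 for the CKAP2 interaction. Between lines in DMSO they ranged from -0.0237 to 0.166 for CDC25C, -0.0542 to 0.00862 for BUB1B, -0.0697 to 0.115 for TTK, -0.0736 to 0.0371 for CENPA, -0.111 to 0.051 for NUF2, -0.0352 to 0.0822 for ASPM, -0.143 to 0.000807 for CKAP5, -0.0876 to 0.172 for HMMR and -0.0892 to 0.0403 for ECT2. In chidamide they ranged from -0.169 to 0.16 for BUB3, -0.0967 to 0.00915 for KIF4A and -0.134 to 0.00135 for CKAP2L. The causes of these changes were not tested.

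Between groups, the deviations of same-numbered libraries had correlations of -0.279 to 0.166 across 10710 genes. The labels give only a number, and whether same-numbered libraries share a batch was not tested. With a replicate block 51 members were lower in Raji-4RH, 44 in Raji and 44 for the interaction, between lines 18 were lower and 11 higher in DMSO and 46 lower in chidamide, and the calls lost were the KIF14 interaction (adjusted p = 0.0529) and KIF20A in DMSO (adjusted p = 0.05).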
